A study of Mus musculus with 15 samples.

Results

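The genes described here are 6 genes for glutamine, glutamate, ammonium and related transport and signalling in hepatocytes next to the central vein of the liver lobule: Glul, Slc1a2, Rhbg, Oat, Slc13a3 and Npr2. They were taken by symbol from the 55984 genes of the count table, and were chosen by function with earlier results of these data known, among them the lower read counts of Glul and Slc1a2 in 4n-top than in 4n-bottom. All 6 were listed and all 6 passed the filter on low counts that left 17488 genes for testing. RNA was sequenced from liver hepatocytes of adult male WT mice of the strain C57BL/6JJcl, sorted on the DNA dye Hoechst. The study stained the cells with Hoechst in the presence of reserpine and DNase, gated out dead cells with a further dye, and names no treatment of the mice. Hoechst-area gave cellular ploidy and hence 2n-whole (diploid) and 4n-whole (tetraploid) cells, with 4 mice each. Hoechst-height divided the tetraploid cells into 4n-bottom, enriched in binucleated cells with a pair of diploid nuclei (4 mice), and 4n-top, enriched in mononucleated cells with 1 tetraploid nucleus (3 mice, numbers 2, 3 and 4). Both fractions came from a single round of sorting and were enriched rather than pure, and the study spun 2n cells faster and longer than 4n cells after the sort.

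The liver lobule is divided into zones between the portal tract and the central vein. Ammonium is used first by the urea cycle in periportal hepatocytes, and what passes them is fixed into glutamine by glutamine synthetase in a thin layer of hepatocytes around the central vein, where Wnt signals from the vein maintain the pericentral programme. Glul encodes glutamine synthetase. Oat, ornithine aminotransferase of the mitochondrion, forms the precursor of glutamate from ornithine, Slc1a2 (GLT-1) takes glutamate into the cell, and Rhbg is an ammonium transporter of the cell membrane. Slc13a3 is a sodium-coupled dicarboxylate transporter, and Npr2 is the receptor guanylyl cyclase for C-type natriuretic peptide.

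In GRCm39 with the GENCODE M39 annotation, Glul (ENSMUSG00000026473.18) lies on chromosome 1 from 153775690 to 153785469 on the plus strand. Slc1a2 (ENSMUSG00000005089.17) lies on chromosome 2 from 102488574 to 102621129 on the plus strand, and Slc13a3 (ENSMUSG00000018459.17) on chromosome 2 from 165246948 to 165315268 on the minus strand. Rhbg (ENSMUSG00000104445.3) spans 88150181 to 88162043 on the minus strand of chromosome 3. Oat (ENSMUSG00000030934.11) spans 132159153 to 132191517 on the minus strand of chromosome 7, and Npr2 (ENSMUSG00000028469.17) spans 43631339 to 43651436 on the plus strand of chromosome 4. Rhbg shared 59.3% of its exonic bases with Gm38392, a protein-coding gene on the same strand, so that part of its reads could not be assigned to it alone. Glul shared 2.36% of its exonic bases with Mir8114 on the same strand and 3.72% with Teddm2 on the opposite strand.

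The promoters of 3 members are shown because their values part in the comparisons that follow: Glul and Slc1a2 were both lower in 4n-top than in 4n-bottom, and Oat was not. Each window runs from 250 bases before to 50 bases after the start of the Ensembl canonical transcript, 5′ to 3′ on the strand of the gene, in GRCm39. They are chr1:153776073-153776372 on the plus strand for Glul, chr2:102488324-102488623 on the plus strand for Slc1a2 and chr7:132178078-132178377 on the minus strand for Oat. Capitals mark CCAAT boxes, written ATTGG where the box is on the other strand.
Glul: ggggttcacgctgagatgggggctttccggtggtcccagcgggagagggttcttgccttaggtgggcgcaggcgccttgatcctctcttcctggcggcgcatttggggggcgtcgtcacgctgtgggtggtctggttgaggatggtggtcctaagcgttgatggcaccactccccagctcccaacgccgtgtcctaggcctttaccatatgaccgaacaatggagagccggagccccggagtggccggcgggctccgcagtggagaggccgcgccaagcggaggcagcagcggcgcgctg
Slc1a2: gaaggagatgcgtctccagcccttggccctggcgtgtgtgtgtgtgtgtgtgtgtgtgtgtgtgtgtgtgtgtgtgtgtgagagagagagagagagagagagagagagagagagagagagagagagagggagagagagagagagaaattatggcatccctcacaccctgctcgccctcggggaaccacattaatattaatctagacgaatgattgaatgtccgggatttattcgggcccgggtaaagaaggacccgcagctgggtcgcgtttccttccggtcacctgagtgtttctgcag
Oat: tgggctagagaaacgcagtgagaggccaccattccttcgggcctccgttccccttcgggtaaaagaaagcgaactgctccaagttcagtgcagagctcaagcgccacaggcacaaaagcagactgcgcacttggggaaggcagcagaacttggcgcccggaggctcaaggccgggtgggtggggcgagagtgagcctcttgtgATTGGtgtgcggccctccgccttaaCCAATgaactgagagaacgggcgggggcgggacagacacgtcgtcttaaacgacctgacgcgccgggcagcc
The Oat window held CCAAT boxes whose first base lay at positions -47 and -22 from the start site, in opposite orientations and without overlap. Searched on both strands, CCAAT was found in the windows of 2 of the 6 members, Oat and Rhbg, and in 39.9% of the 21770 windows of protein-coding genes. The TCF/LEF cores CTTTGA and CTTTGT (in 16.2% and 18.2% of all windows), the TATA box TATAAA (13.2%) and the HNF4 element CAAAGTCC (1.5%) were in 0 of the 6 members' windows. The Slc1a2 window carried long runs of repeated TG and AG, and its GC content was 53.3%, against 66.7% for Glul, 61.7% for Oat and a median of 54.3% over all windows. A match is a description of letters, and its absence from this window says nothing about the factor.

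The libraries held between 22049498 and 42096421 counts. A gene with 3 counts, taken here as the limit of detection, stood at 0.0693 to 0.120 CPM (counts scaled to a common TMM-adjusted library total), a limit that covers counting error only. Of the 7 hepatocyte markers, all were detected in each population, and their sum ranged from 74236 to 105027 CPM over the libraries. Markers of other cells were low: the 6 endothelial markers summed to 2.40 to 22.4 CPM, the 6 markers of central vein endothelium to between 0 and 2.00 CPM, the 7 stellate cell markers to 1.77 to 5.46 CPM, and the 6 lymphocyte markers to at most 0.518 CPM with 0 genes tested. The 5 biliary markers summed to 34.6 to 47.4 CPM in 2n-whole and 16.404 to 31.189 CPM in 4n-whole, mostly Sox9 and Spp1, and the 6 Kupffer cell markers to 0.518 to 6.38 and 0.257 to 1.28 CPM. The biliary sums of 2n-whole and 4n-whole did not overlap. The Kupffer cell sums did, and 0 of the 5 Kupffer cell markers tested were called. The part of either sum in the comparison of 4n-whole and 2n-whole, described next, was not tested. In bulk RNA, a larger share of cells expressing a gene and more RNA of it in each cell cannot be told apart.

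Glutamine synthetase was higher in 4n-whole than in 2n-whole hepatocytes of every mouse. Glul stood at 29.1, 24.0, 43.0 and 66.8 CPM in 2n-whole of mice 1 to 4, and at 111, 44.7, 82.1 and 176 CPM in 4n-whole. Mouse 4 was the highest in both populations and mouse 2 the lowest in both. The groups overlapped, since 4n-whole of mouse 2 lay below 2n-whole of mouse 4, but within each mouse the tetraploid library was the higher, by 1.86 to 3.80 times. In edgeR's quasi-likelihood test with the mouse as replicate block, the log2 fold change was 1.30 (SE 0.15), that is 2.46-fold, with an adjusted p of 1.35e-06.

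The glutamate transporter and the enzyme that supplies glutamate from ornithine differed in the same direction. Slc1a2 was at 4.22, 3.89, 13.8 and 19.0 CPM in 2n-whole and at 23.7, 5.41, 41.9 and 54.6 CPM in 4n-whole of mice 1 to 4. The groups overlapped through mouse 2, whose 4n-whole library held 135 counts of Slc1a2 against 129 in its deeper 2n-whole library. The log2 fold change of Slc1a2 was 1.58 (SE 0.19, adjusted p 3.70e-06), and Slc1a2 was higher in 4 of 4 mice. Oat was at 45.8, 60.8, 67.4 and 83.9 CPM in 2n-whole and at 237, 88.9, 190 and 326 CPM in 4n-whole. The Oat groups did not overlap, with mouse 2 closest to the diploid range. Its log2 fold change was 1.61 (SE 0.19, adjusted p 4.37e-06), and the ratio within a mouse ranged from 1.46 to 5.18.

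The dicarboxylate transporter and the natriuretic peptide receptor were higher in 4n-whole as well, each in 4 of 4 mice. Slc13a3 was a low gene, at 0.296, 0.181, 0.487 and 1.09 CPM in 2n-whole (6 to 38 counts) and at 1.85, 0.481, 3.14 and 5.91 CPM in 4n-whole (12 to 187 counts). Its groups overlapped through mouse 2, and its log2 fold change was 2.37 (SE 0.37, adjusted p 1.70e-04). Npr2 was at 5.35, 4.01, 7.20 and 3.74 CPM in 2n-whole and at 16.7, 12.9, 16.2 and 23.9 CPM in 4n-whole. The groups of Npr2 did not overlap, and mouse 4, lowest of the diploid libraries, was the highest of the tetraploid ones. The log2 fold change of Npr2 was 1.78 (SE 0.19, adjusted p 5.35e-07).

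The ammonium transporter Rhbg was near the limit of detection. Its counts were 0, 0, 0 and 13 in 2n-whole and 7, 5, 1 and 14 in 4n-whole of mice 1 to 4, then 2, 0, 4 and 13 in 4n-bottom, and 0, 0 and 10 in 4n-top of mice 2 to 4. It was at 0 in 6 of the 15 libraries and under 3 counts in 8, and mouse 4 held at least 10 counts in each population. The 4n-whole against 2n-whole difference did not pass the test (log2 fold change 3.17, SE 1.80, adjusted p 0.338). With 3 of 4 diploid libraries at 0, the fitted value was unstable: it was 1.14 without the replicate block, 2.26 without mouse 1 and 2.06 without mouse 2, and none of these passed the test. Gm38392, which shares exons with Rhbg, held 6 and 12 counts in 2n-whole of mice 3 and 4 and 0 in the other 13 libraries. The counts of Rhbg may understate it if reads in the shared exons were left out of the counting, which was not tested.

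Thus 5 of the 6 members were called higher in 4n-whole at an adjusted p under 0.05 and an absolute log2 fold change over 0.5, and each of the 5 was higher in 4 of 4 mice. Over all 17488 genes tested, 3.47% were called, 1.74% higher and 1.73% lower, and the median log2 fold change was -0.0070. The calls rest on comparing libraries within a mouse. Without the replicate block, Npr2 alone of the 6 was called, and the adjusted p was 0.282 for Glul, 0.361 for Slc1a2, 0.0795 for Oat and 0.180 for Slc13a3, with fold changes close to those above. Leaving out each mouse in turn kept all 5 called, with a highest adjusted p of 0.0182 (Slc13a3).

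**Figure D1:**
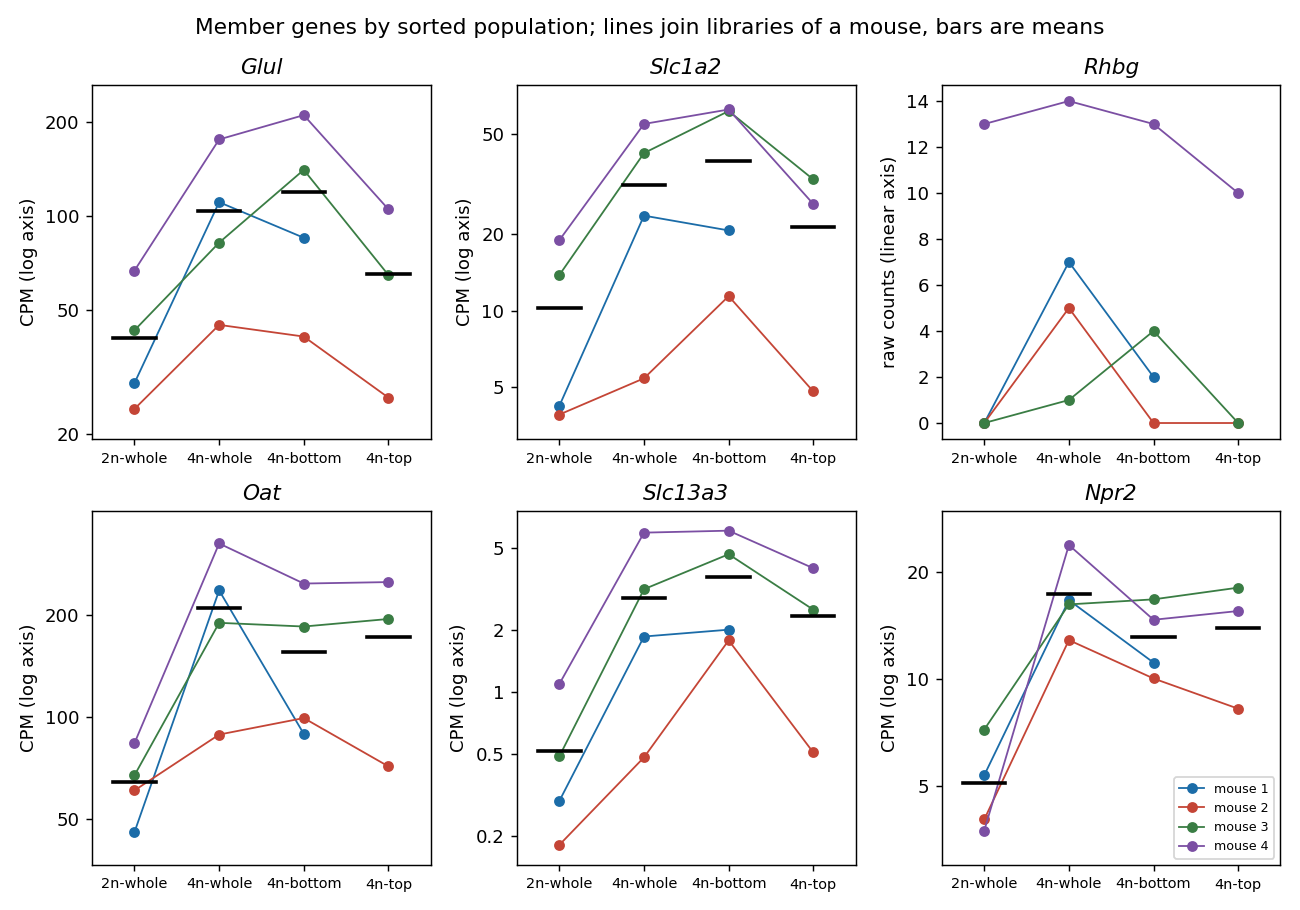
Level of each member by sorted population, in CPM on log axes for 5 genes and in raw counts on a linear axis for Rhbg. Points are libraries, lines join those of a mouse and bars mark the mean of 3 or 4 libraries. For the 5 genes in CPM the 2n-whole library was the lowest of every mouse, and Glul and Slc1a2 were lower in 4n-top than in 4n-bottom of each of the 3 mice.

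Levels of different genes were compared per length of annotated exon, as TPM (counts per exon length, scaled to a common total). In 4n-whole, Glul at 80.7 ± 47.7 TPM and Oat at 82.8 ± 42.4 TPM (SD, n = 4) were the most abundant members and were indistinguishable from each other. Slc1a2 at 6.87 ± 5.00 TPM and Npr2 at 5.06 ± 1.62 TPM came next, also within their spread, followed by Slc13a3 at 1.65 ± 1.45 TPM. In 2n-whole the levels were 22.8 ± 9.35 TPM for Glul, 18.4 ± 3.27 TPM for Oat, 1.58 ± 1.06 TPM for Slc1a2, 1.08 ± 0.306 TPM for Npr2 and 0.210 ± 0.155 TPM for Slc13a3. Between 2n-whole and 4n-whole these genes differed more in TPM, which was not TMM-adjusted, than in CPM. For Glul the mean CPM was 40.7 in 2n-whole and 103 in 4n-whole. The size of the difference thus depends on the scale, and the cause was not tested. The exon union of a gene includes exons that its liver transcripts may not use, so levels of genes with many annotated exons, Slc1a2 among them with 13994 exonic bases, may be understated.

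Between the tetraploid fractions the members divided, with no test given here, since this contrast was known when they were chosen. In 4n-bottom, Glul was at 85.1, 41.0, 141 and 211 CPM in mice 1 to 4, whereas the 4n-top libraries of mice 2 to 4 held 26.1, 64.6 and 105 CPM. It was lower in 4n-top in 3 of 3 mice, at 0.460 to 0.637 of the 4n-bottom level, although the ranges of the groups overlapped because the mice differed. The fitted log2 difference, 4n-top against 4n-bottom, was -0.90 (SE 0.16).

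The 4n-bottom libraries held Slc1a2 at 20.7, 11.42, 61.4 and 62.3 CPM, and those of 4n-top at 4.80, 33.0 and 26.4 CPM. It too was lower in 4n-top in 3 of 3 mice, with a log2 difference of -1.08 (SE 0.20). Slc13a3, at 2.00, 1.78, 4.64 and 6.04 CPM in the 4n-bottom libraries and 0.508, 2.50 and 3.97 CPM in those of 4n-top, was lower in 4n-top in 3 of 3 mice as well (log2 difference -1.03, SE 0.37). Its difference was the largest in mouse 2, at -1.70, and the smallest in mouse 4, at -0.60.

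Oat and Npr2 did not share this pattern. Oat was at 89.3, 99.5, 185 and 248 CPM in the 4n-bottom libraries, beside 71.6, 195 and 251 CPM in those of 4n-top, with a log2 difference of 0.02 (SE 0.20). Npr2 was at 11.1, 10.0, 16.8 and 14.7 CPM in the 4n-bottom libraries, beside 8.24, 18.1 and 15.5 CPM in those of 4n-top, with a log2 difference of 0.03 (SE 0.20). Both were lower in 4n-top in mouse 2 and slightly higher in mice 3 and 4.

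**Figure D2:**
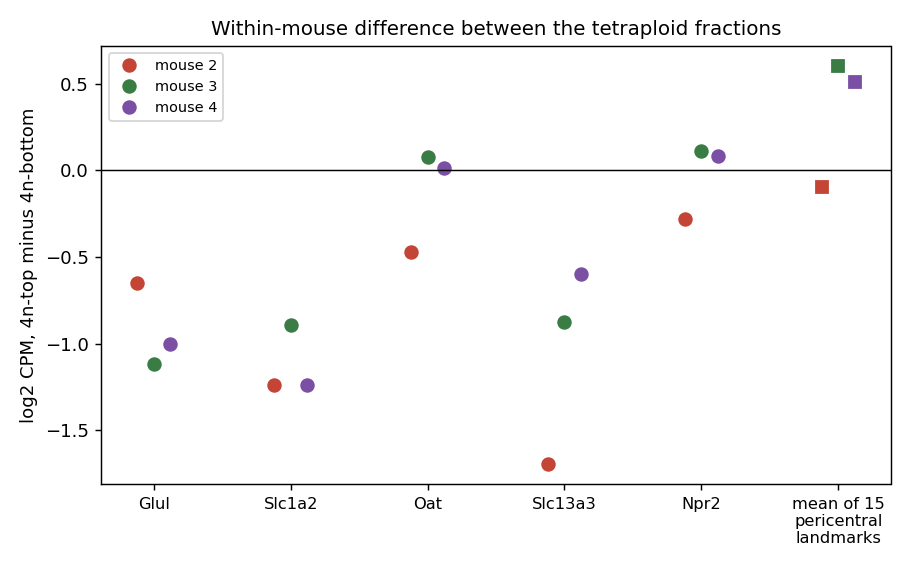
Difference in log2 CPM between 4n-top and 4n-bottom of the same mouse for 5 members (circles) and for the mean of 15 pericentral landmark genes (squares), mice 2 to 4. Glul, Slc1a2 and Slc13a3 lie below 0 in every mouse, while Oat, Npr2 and the landmark mean lie on both sides of 0.

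The order of the populations within a mouse was the same at its lower end for 5 members: 2n-whole was the lowest in each of the 4 mice for Glul, Slc1a2, Oat, Slc13a3 and Npr2. For Glul and Slc1a2, 4n-top came next in each of the 3 mice that have it, and 4n-whole and 4n-bottom stood above it. The upper pair could not be ordered: 4n-whole exceeded 4n-bottom in 2 of 4 mice for Glul, with a mean log2 difference of -0.13 ± 0.50 (SD, n = 4), and in 1 of 4 mice for Slc1a2 (-0.40 ± 0.54). Slc13a3 was highest in 4n-bottom in 4 of 4 mice (4n-whole minus 4n-bottom -0.61 ± 0.80), and Oat (0.42 ± 0.70) and Npr2 (0.40 ± 0.33) were higher in 4n-whole in 3 of 4. Against 2n-whole, the fitted log2 difference of 4n-top was 0.53 (SE 0.16) for Glul and 0.84 (SE 0.20) for Slc1a2. That of 4n-bottom, against the same diploid libraries, was 1.43 (SE 0.15) for Glul and 1.92 (SE 0.19) for Slc1a2. For Oat, 4n-top stood at 1.17 (SE 0.21) and 4n-bottom at 1.16 (SE 0.19) above 2n-whole, and for Npr2 at 1.39 (SE 0.20) and 1.37 (SE 0.19). The values for Slc13a3 were 1.93 (SE 0.40) and 2.96 (SE 0.37).

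The other genes of the pathway were read in 4n-whole against 2n-whole. Of 26 enzymes that make or use glutamine and glutamate, 0 were called by edgeR or by DESeq2 with the replicate block and 1 by ComBat-seq then DESeq2. An unadjusted p under 0.05 was found for 10 of the 26 (38.5%), beside 3570 (20.4%) of all genes tested, and the median log2 fold change of the enzymes was -0.0075. Among them, Prodh, proline dehydrogenase, had a log2 fold change of 0.39 (SE 0.10, adjusted p 0.0158) and Kyat1, a glutamine transaminase, one of 0.37 (SE 0.11, adjusted p 0.0388). Both stayed under the fold limit. Glutaminase of the liver, Gls2, had a log2 fold change of -0.21 (SE 0.09, adjusted p 0.168) and glutamate dehydrogenase, Glud1, one of 0.10 (SE 0.07, adjusted p 0.484).

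Of 22 other transporters of glutamine, glutamate and ammonium, 14 were tested and 1 was called, beside 3.47% of all genes tested. An unadjusted p under 0.05 in the edgeR test was found for 3 of the 14 (21.4%), close to the 20.4% of all genes. The called gene was Slc25a12, a mitochondrial aspartate and glutamate carrier, which fell by 0.53 on the log2 scale (SE 0.14, adjusted p 0.0252). This call was lost when mouse 2 or mouse 4 was left out, without the replicate block and with only the compared populations in the fit. The main glutamine transporter of the liver cell membrane, Slc38a3, had a log2 fold change of 0.03 (SE 0.09, adjusted p 0.887). Of 14 dicarboxylate carriers and genes of natriuretic peptide signalling, 7 were tested and 1 was called, and 2 of the 7 (28.6%) had an unadjusted p under 0.05. The called gene was Slc13a5, the sodium-coupled citrate transporter and a relative of Slc13a3, which fell by 2.57 (SE 0.61, adjusted p 0.0127) at a mean of 1.16 CPM. Its call was lost without the replicate block and with only the compared populations in the fit.

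Landmarks of lobular position differed in the same comparison. Of 15 pericentral landmarks, 13 were called higher in 4n-whole, with a median log2 fold change of 1.56 over the list. Those with the smallest p were Cyp2a5 (1.60, SE 0.15, adjusted p 7.05e-08), Cyp1a2 (1.65, SE 0.15, adjusted p 9.10e-08), both cytochromes P450, Gulo of vitamin C synthesis (1.57, SE 0.16, adjusted p 2.43e-07), the transcription factor Tbx3 (2.07, SE 0.21, adjusted p 4.50e-07) and the nuclear receptor Nr1i3 (1.53, SE 0.16, adjusted p 6.72e-07). Znrf3 and Nkd1 were the landmarks not called. Of 14 periportal landmarks tested, 4 were called, each of them lower: Cyp2f2 at -0.73 (SE 0.11, adjusted p 7.74e-05), Cdh1 at -0.63 (SE 0.10, adjusted p 2.46e-04), Hsd17b13 at -0.61 (SE 0.10, adjusted p 4.41e-04) and Etnppl at -0.52 (SE 0.10, adjusted p 0.00148). The median over the periportal list was -0.26. Among markers of other cells, 2 of the 5 on the biliary list were called lower in 4n-whole, Spp1 (-2.81, SE 0.38, adjusted p 2.00e-05) and Sox9 (-0.62, SE 0.12, adjusted p 0.00229). Krt19 and Epcam of the same list, at means of 0.272 and 0.148 CPM, were not called, and Krt7 was not tested. Whether biliary cells carry the difference of Spp1 and Sox9 was not tested. Of the hepatocyte markers, 1 of 7 was called, Serpina1c (-0.83, SE 0.14, adjusted p 5.41e-04).

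**Figure D3:**
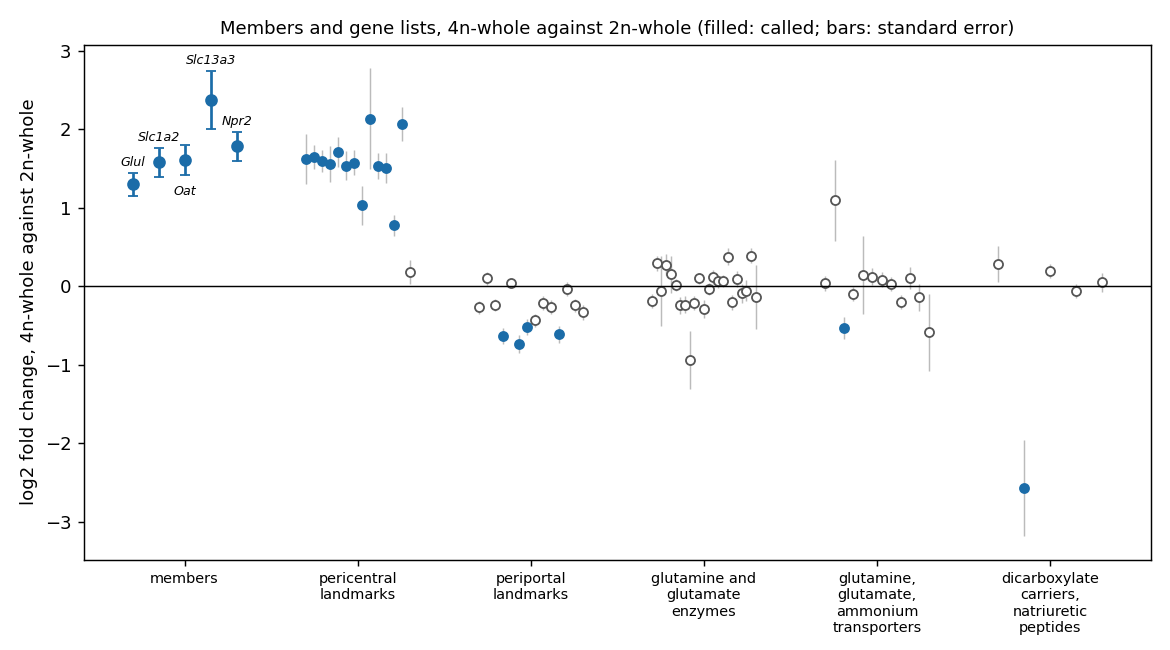
Log2 fold change of 4n-whole against 2n-whole with its standard error for the members other than Rhbg and for tested genes of 5 lists with a mean of at least 1 CPM. Filled points were called by edgeR. The members lie between 1.30 and 2.37, the called pericentral landmarks between 0.77 and 2.13, and the enzymes of glutamine and glutamate between -0.94 and 0.39.

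Between 4n-top and 4n-bottom most pericentral landmarks did not share the direction of Glul. The median log2 difference was 0.39 over the 15 pericentral landmarks, of which 12 were above 0. Axin2 (-0.04, SE 0.33), Lgr5 (-0.19, SE 0.66) and Nkd1 (-0.73, SE 1.08) were below 0 by less than their standard errors. The median was -0.18 over 14 periportal landmarks, of which 1 was above 0, beside a median of 0.0010 over all genes tested. Each member was therefore also measured against the mean log2 CPM of the 15 pericentral landmarks in the same library, a measure added after the data were seen. In 4n-whole against 2n-whole the landmark mean differed by 1.42 ± 0.58 (SD, n = 4 mice), and relative to it Glul differed by -0.13 ± 0.26, Slc1a2 by 0.09 ± 0.26, Oat by 0.17 ± 0.25 and Npr2 by 0.36 ± 0.82, each within the spread between mice. Slc13a3 stood 0.71 ± 0.39 above the landmarks, in 4 of 4 mice.

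In 4n-top against 4n-bottom the landmark mean differed by 0.34 ± 0.38 (n = 3 mice). Relative to it, Glul differed by -1.26 ± 0.62, Slc1a2 by -1.46 ± 0.30 and Slc13a3 by -1.39 ± 0.26. Oat and Npr2 differed by -0.47 ± 0.08 and -0.37 ± 0.16. On this relative scale all 5 were lower in 4n-top in 3 of 3 mice. Without it, the fitted log2 differences of Oat and Npr2 were 0.02 and 0.03. Those of the landmarks themselves ran from -0.73 to 0.86. The lowest was Nkd1 (SE 1.08, at a mean of 0.473 CPM), and the next was Lgr5 at -0.19 (SE 0.66). Some landmarks must lie below their own mean, so a place below it is not by itself particular to the members. The fitted differences of Glul (-0.90), Slc1a2 (-1.08) and Slc13a3 (-1.03) were lower than that of every landmark, though within the standard error of Nkd1. All these values describe the contrast known when the members were chosen.

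**Figure D4:**
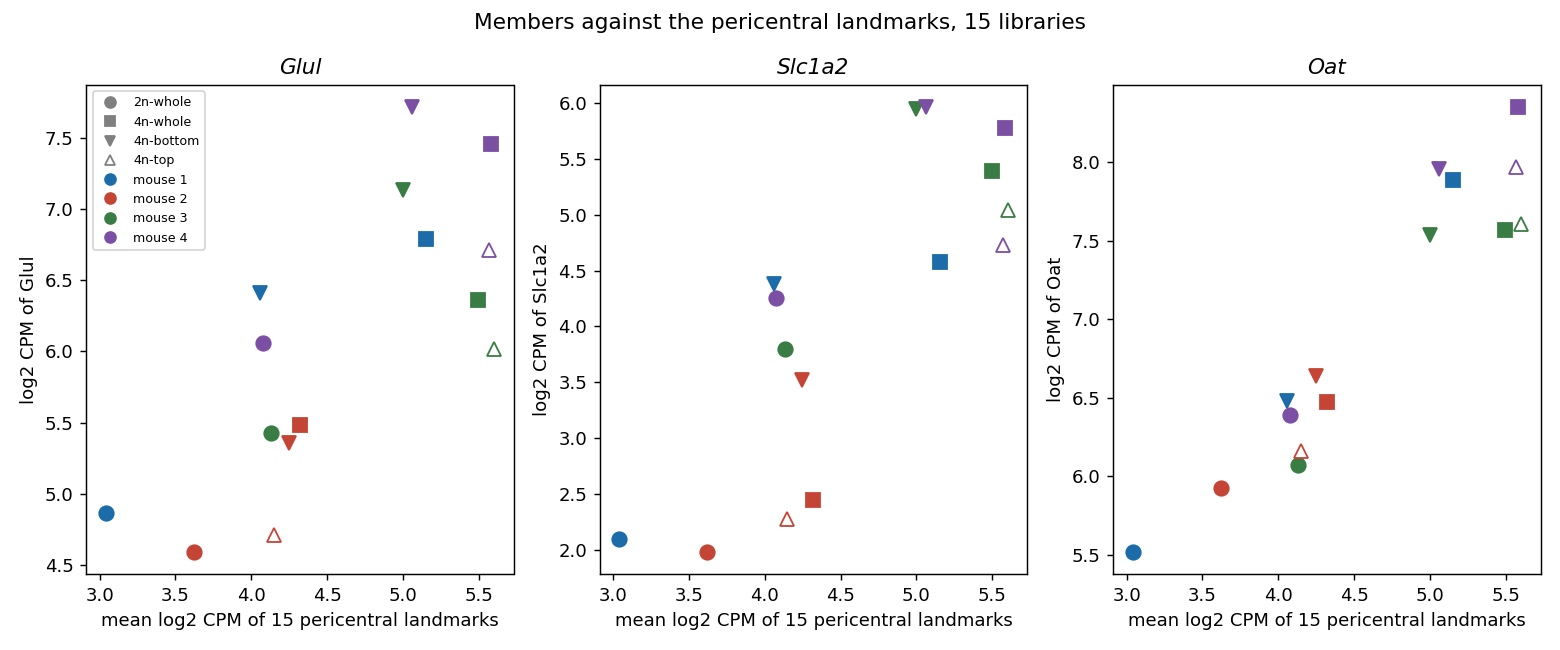
Log2 CPM of Glul, Slc1a2 and Oat against the mean log2 CPM of 15 pericentral landmarks in the same library, for 15 libraries (colour, mouse; shape, population; 4n-top as open triangles). In mice 3 and 4, 4n-top libraries lie to the right of the 4n-bottom libraries and below them for Glul and Slc1a2, and at about the same height for Oat.

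The mice differed more in the 5 members above the detection limit in every library than in most genes, as they did in the pericentral landmarks. In the fit, the effects of the 4 mice spanned 3.85-fold for Glul, 6.11-fold for Slc1a2, 6.29-fold for Slc13a3, 2.50-fold for Oat and 1.71-fold for Npr2, beside a median of 1.37-fold over 11630 genes with a mean of at least 1 CPM. Mouse 2 was the lowest for all 5. Mouse 4 was the highest for Glul, Slc1a2, Oat and Slc13a3, and mouse 3 for Npr2. Over the 15 pericentral landmarks the span ranged from 1.49-fold to 8.44-fold with a median of 2.35-fold, and 9 of them were likewise lowest in mouse 2. The widest span was that of Nkd1, at a mean of 0.473 CPM, under the limit of 1 CPM set for the median over genes.

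Likeness between genes was measured by Pearson's r over the 15 libraries on log2 CPM with each mouse's mean removed. It is given without a test because libraries share mice and the genes share the differences between populations. The lower counts of Glul and Slc1a2 in 4n-top than in 4n-bottom, known when the members were chosen, also enter it. Slc1a2 was the gene most like Glul of all tested (r = 0.94), followed by Rd3 (0.92), Mea1 and Lrrc73 (0.91), Gm15635 (0.90), Prox1os (0.89), Ttc7b and Apbb3 (0.88), Slc13a3 (0.87) and Ddx41 (0.86). Without centring on the mouse, 2 of these 10 stayed among the 10 most like Glul, Slc1a2 and Slc13a3. Rd3 was lower in 4n-top as Glul was, with a log2 difference of -0.84, whereas Mea1 differed by -0.09. Lrrc73, at a mean of 0.159 CPM, was close to the limit of detection.

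The genes most like Slc1a2 were Slc13a3 (r = 0.95), Lrrc73 (0.94) and Glul (0.94). Those most like Slc13a3 were Slc1a2 (0.95), Gucd1 (0.94) and Lrrc73 (0.91). Oat was most like Gulo (0.98), Lhpp and Cyp2c37 (both 0.97), which were higher in 4n-top by 0.28, 0.19 and 0.48 on the log2 scale. Npr2 was most like Aox1 (0.96), Susd4 (0.95) and Stat6 (0.94). Among the members themselves, the mouse-centred r of Glul was 0.94 with Slc1a2, 0.87 with Slc13a3, 0.83 with Oat and 0.81 with Npr2, and that of Oat with Npr2 was 0.91. For Rhbg the leading genes were Sugp2 (0.91), Gm33037 (0.90) and 1810019D21Rik (0.89), but Rhbg's own values rest on at most 14 counts.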

How the data were processed

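The authors aligned RNA-seq reads (Takara SMART-Seq Stranded) to GRCm39 with STAR 2.7.11a and counted them with featureCounts; the annotation release and the strand, pair and multimapping settings are not given in the sources used here. The deposited values are raw counts per gene, before the study's ComBat-seq adjustment. Of counts from 1 to 10, 74.2% to 81.4% per library were even, so low counts may not be independent reads. The limit of 3 counts and the counts of Rhbg and Slc13a3 may then stand for fewer sequenced fragments. The cause of the even counts was not tested. The members and lists were chosen with earlier results of these data known. edgeR 4.0.16 (R 4.3.3) was run with TMM, default filterByExpr, 15 libraries, population and mouse, and p-values were adjusted by Benjamini-Hochberg over 17488 genes. The mouse, given by the subject number in the labels, was the replicate block, so the pairing is by animal. Residuals of libraries of a mouse correlated at 0.158 on average (lowest 0.0845), beside -0.128 on average between libraries of different mice. Of the 15 libraries, 15 correlated best with a library of their own mouse. The test was for 4n-whole against 2n-whole, and other contrasts are values. Log2 CPM used a prior count of 2. TPM used GENCODE M39 exon unions. Named genes are the members, their nearest genes by correlation (10 for Glul, 3 for each other member), and up to 5 called genes of each list by smallest p; Prodh, Kyat1, Gls2, Glud1, Slc38a3, Znrf3, Axin2, Lgr5 and Nkd1 were named after their values were seen. Scripts were tested on simulated data. Alternatives were no replicate block, DESeq2 1.42.0, ComBat-seq (sva 3.50.0) with DESeq2, DESeq2 size factors, no filter on low counts, the compared populations only and leaving out each mouse. A 4n-top library of mouse 1 was not analysed here, and the study left it out because its RNA was of poor quality.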

Additional observations from a re-analysis of the deposited data

Results flagged for a closer look

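Among the 18 groups of 4 libraries examined (6 members in 3 populations), 1 held a library far from the others: Rhbg in 2n-whole, where mouse 4 stood at 0.374 CPM and the other 3 libraries at 0. For continuous values, chance flags about 1 in 20 groups. That rate does not hold for this group, because with 3 libraries at 0 any count in the remaining library gives a flag. The same mouse held the most counts of Rhbg in each population.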

How the results depend on the processing

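Under DESeq2 with the replicate block, ComBat-seq then DESeq2, DESeq2 size factors, no filter on low counts and the compared populations alone, Glul, Slc1a2, Oat, Slc13a3 and Npr2 were called higher in 4n-whole than in 2n-whole. Rhbg was not among the genes tested with the compared populations alone or without mouse 4, and was not called otherwise. Without the replicate block, 1 member was called, with log2 fold changes of 1.34 for Glul (adjusted p 0.282), 1.62 for Slc1a2 (0.361), 1.71 for Oat (0.0795) and 2.47 for Slc13a3 (0.180), and the calls fell to 0 transporters, 0 dicarboxylate and natriuretic genes, 4 pericentral and 0 periportal landmarks and 40 of all genes. Its Slc1a2 difference between 4n-top and 4n-bottom was -0.87. ComBat-seq then DESeq2 called 1 of the enzymes and 1160 of all genes. With the compared populations alone, 0 transporters, 0 dicarboxylate and natriuretic genes and 305 of all genes were called, from fewer libraries. Leaving out a mouse gave 0 to 1 transporters and 244 to 1025 of all genes (365 without mouse 2, 1025 without mouse 3, 244 without mouse 4). The cause of the other shifts was not tested. Counts near 3 limit Rhbg, and few counts limit Slc13a3.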
